A study of Mus musculus with 800 samples.

Results

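AiE0387m and AiE0779m are 2 enhancers, known here by code only, that were each placed in an adeno-associated virus to drive H2B-SYFP2, a yellow fluorescent reporter that histone H2B holds in the nucleus. The comparison takes every nucleus whose title names either vector, 40 for AiE0387m and 40 for AiE0779m out of 800 labelled nuclei carrying 20 vectors, and keeps those with reads in at least 1000 genes. All 40 AiE0387m nuclei and 31 of the 40 AiE0779m nuclei passed, so 71 of 80 remained, beside 698 of 800 in the whole series. The AiE0779m nuclei nearest the minimum had 985 genes on the outer side and 1007 on the inner side, and the poorest AiE0387m nucleus had 1605. Each nucleus was sorted into its own library and sequenced by SMART-Seq v4, a full-length method that counts reads and not molecules.

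According to the labels, both groups came from C57Bl/6J mice, an inbred laboratory strain, and from the anterior lateral motor cortex. The treatments are given as AiP14056 for AiE0387m and AiP13969 for AiE0779m, both packaged in PHP.eB, a capsid that crosses from blood to brain. The series design gives a dose of 5e11 vector genomes per mouse for all vectors and sorting after 3 to 4 weeks, and it also names the striatum and the visual cortex as sorted regions. The labels name no animal, sex or age, so a vector stands for 1 sample only and the vectors were compared without a test. Intervals below are 95% intervals that cover counting error only.

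Striatal projection neurons are the inhibitory output cells of the striatum and carry Rgs9, Pde10a and Ppp1r1b, which act on dopamine and cAMP signalling. They fall into a direct pathway type, with the dopamine receptor Drd1 and the peptide gene Tac1 (substance P), and an indirect pathway type, with the dopamine receptor Drd2, the adenosine receptor Adora2a and the peptide gene Penk (enkephalin). The cortex, which the labels name, is not known for such neurons, and their markers are the first check of what these nuclei are.

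The pair was selected on the measured levels of Rgs9, Drd1 and Drd2, which earlier results of these data had shown to be high in many nuclei of both vectors, so these levels are a description. Rgs9 had reads in 24 of 25 AiE0387m and 21 of 21 AiE0779m nuclei of the cluster named striatal projection neuron-like. The 12 markers of the class together reached 4786 to 22466 CPM per nucleus under AiE0387m (counts scaled to 1e6, median 12092) and 5799 to 15704 CPM under AiE0779m (median 9143). The ranges overlap. Of the 12 markers all had reads under AiE0387m, and Adora2a and Penk had none under AiE0779m. In the same nuclei the cortical glutamatergic genes Tbr1, Neurod6, Neurod2, Cux2, Fezf2 and Emx1 had no reads under either vector. The whole glutamatergic list, which includes Foxp2, a gene that striatal neurons also use, had 4 of 12 genes with reads under each vector. It summed to 0 to 1514 CPM (median 66.7) and 0 to 1925 CPM (median 428). Slc17a7, also on the list, had reads in 1 of 25 nuclei (0.797 CPM) and 3 of 21 nuclei (18.9 CPM). Striatal markers thus stood beside a label that names the motor cortex. Since the pair was selected and the cluster named on such markers, their levels describe these nuclei and do not test the label, and the region each nucleus was taken from was not tested.

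Striatal projection neuron-like nuclei made up 25 of 40 nuclei under AiE0387m (62.5%, exact Clopper-Pearson interval 45.8 to 77.3%) and 21 of 31 under AiE0779m (67.7%, 48.6 to 83.3%). The intervals overlap widely. Under the other 18 vectors the class held 112 of 627 nuclei (17.9%, 14.9 to 21.1%). Since the pair was selected on high levels of striatal markers, a larger share than under the other vectors was set in advance and is a description. The remaining nuclei differed in kind. Under AiE0387m, 14 of 40 nuclei were interneuron-like (35%, 20.6 to 51.7%), against 2 of 31 under AiE0779m (6.45%, 0.791 to 21.4%). Oligodendrocyte-like nuclei, with the genes of myelin-forming glia, were 7 of 31 under AiE0779m (22.6%, 9.59 to 41.1%) and 0 of 40 under AiE0387m (0 to 8.81%). Each vector had 1 glutamatergic-like nucleus, and astrocyte-like nuclei were 0 of 40 and 0 of 31.

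The classes came in blocks of neighbouring title numbers. The numbers 1 to 40 within a vector were read as 5 runs of 8, without knowledge of what a run was in the laboratory. Under AiE0387m, runs 1, 2 and 3 held 8 striatal projection neuron-like nuclei of 8 each, run 4 held 1 of 8 with 6 interneuron-like and 1 glutamatergic-like nuclei, and run 5 held 8 interneuron-like nuclei. Under AiE0779m, runs 1 and 2 kept 5 and 4 nuclei past the minimum, of which 4 and 3 were oligodendrocyte-like and 1 in each was interneuron-like. Run 3 held 7 striatal projection neuron-like nuclei of 7, run 4 held 7 of 8, and run 5 held 7 of 7. The interval for a share treats nuclei as separate draws, which such blocks go against.

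**Figure D1:**
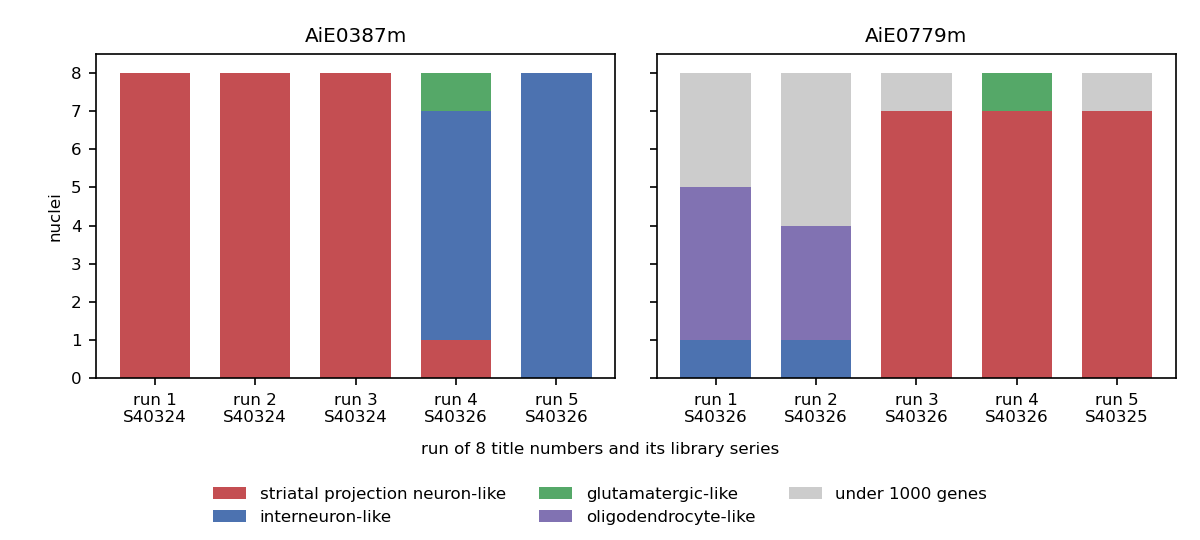
Number of nuclei (vertical axis) of each class in each run of 8 title numbers (horizontal axis, with the library series of the run) for both vectors; grey marks nuclei under 1000 genes. Striatal projection neuron-like nuclei fill runs 1 to 3 of AiE0387m and runs 3 to 5 of AiE0779m, and each class sits in neighbouring runs.

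The blocks also followed the library series, a prefix of the library names. All 24 nuclei of AiE0387m in series S40324 were striatal projection neuron-like (100%, 85.8 to 100%), against 1 of 16 in series S40326 (6.25%, 0.158 to 30.2%). For AiE0779m the class held 14 of 24 nuclei in S40326 (58.3%, 36.6 to 77.9%) and 7 of 7 in S40325 (100%, 59.0 to 100%). Since 24 of the 25 AiE0387m nuclei of this class and none of the 21 AiE0779m nuclei came from S40324, vector and library series cannot be told apart in any comparison within the class.

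Rgs9, a regulator of G protein signalling that shortens dopamine receptor responses, shows the blocks in its summed level over the nuclei past the minimum. Its level was 987, 1040, 1083, 132 and 30.8 CPM in runs 1 to 5 of AiE0387m and 331, 0, 1564, 1208 and 1444 CPM in those of AiE0779m. The 3 high runs of each vector are those filled by striatal projection neuron-like nuclei. Sst, the somatostatin gene of a large interneuron class, was at 0, 0, 0, 351 and 9942 CPM under AiE0387m and at 5681, 0, 0, 19 and 0 CPM under AiE0779m. Mog, a surface protein gene of myelin, was at 0, 0, 0, 33.1 and 0 CPM under AiE0387m and at 1426, 1437, 0, 0 and 0 CPM under AiE0779m. Only the first 2 runs of AiE0779m were high in Mog.

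**Figure D2:**
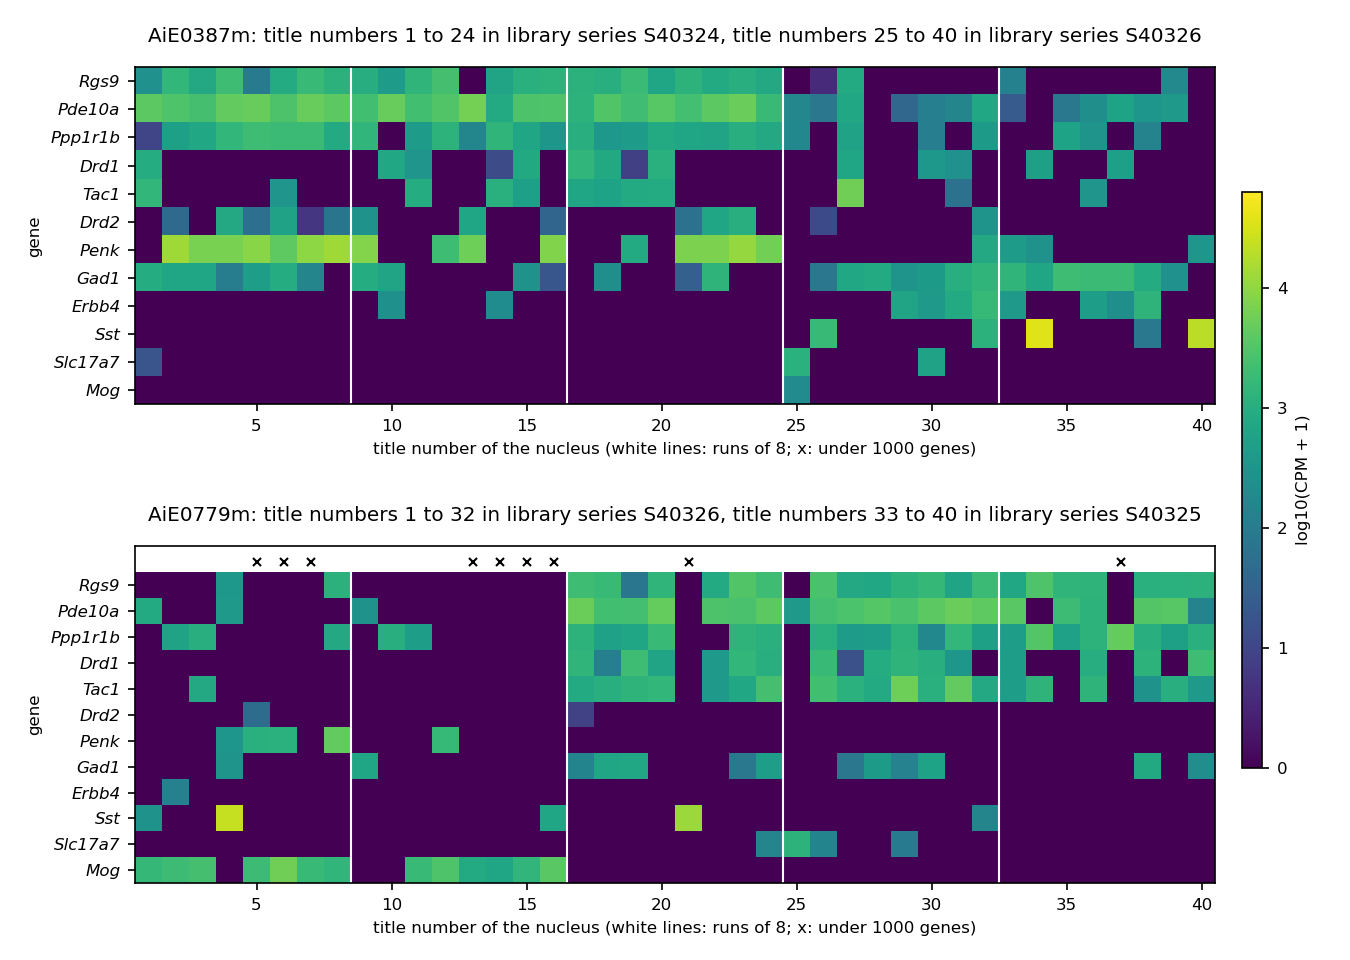
Level of 12 marker genes (rows, log10 of CPM + 1) in each of the 80 nuclei (columns, by title number; white lines separate runs of 8 and crosses mark nuclei under 1000 genes). Penk is strongest in runs 1 to 3 of AiE0387m, Drd1 and Tac1 are frequent in runs 3 to 5 of AiE0779m, and Mog is strong in its first 2 runs.

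Within the striatal projection neuron-like nuclei the vectors differed in the genes of the indirect pathway, which AiE0387m nuclei held and AiE0779m nuclei nearly lacked. Penk, at chr4:4133531-4138819 on the minus strand of mm10, had reads in 16 of 25 AiE0387m nuclei and in 0 of 21 AiE0779m nuclei. A count of 0 was read against a set floor of 3 of 21 such nuclei (14.3%), which is not an exact limit and takes nuclei as separate draws. It sets no limit on how many nuclei express Penk. Its level per AiE0387m nucleus ran from 0 to 13233 CPM with a median of 5605. Summed over nuclei it was 4556 CPM (exact Poisson interval 4497 to 4616) against 0 (0 to 0.586). That is 9557-fold higher when the floor is set at 3 counts over the 21 nuclei, and the size of this ratio depends on the floor. By run, Penk was at 7674 CPM (7 of 8 nuclei), 2882 CPM (4 of 8) and 3896 CPM (5 of 8) in runs 1 to 3 of AiE0387m and at 0 in the 1 such nucleus of run 4. It was at 0 in all 3 AiE0779m runs, so the runs of the vectors overlap only through that single nucleus.

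The other genes of the indirect pathway had the same order. Drd2 (chr9:49340627-49408177, plus strand) had reads in 12 of 25 nuclei under AiE0387m, at 169 CPM (158 to 180), and in 1 of 21 under AiE0779m, at 0.318 CPM (0.0385 to 1.15). Its runs under AiE0387m were at 186, 123, 233 and 0 CPM, and those under AiE0779m at 0.910, 0 and 0 CPM. Adora2a, which opposes Drd2 in these cells, was at 57.8 CPM (51.3 to 64.8, 9 of 25 nuclei) against 0 (0 to 0.586, 0 of 21). Gpr6, an orphan receptor of indirect pathway neurons, was at 412 CPM (394 to 430, 13 of 25 nuclei) against 46.7 CPM (41.5 to 52.4, 2 of 21), 8.82-fold higher. The 2 AiE0779m nuclei with Gpr6 reads show that this gene was not fully absent there.

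Genes entered the comparison when they reached 20 CPM with reads in at least 25% of the nuclei of the same vector, and a gene was called higher or lower past a 4-fold ratio of the summed levels. Within the class 4338 genes entered, of which 259 were higher under AiE0387m (5.97%) and 185 were lower (4.26%). Without AiE0779m run 3 the higher genes numbered 432, and without AiE0387m run 2 or run 3 the lower genes numbered 282 and 304. Of the 8 indirect pathway genes listed, 4 entered and all 4 were higher. A gene could enter through the vector in which it is high, and the pair was proposed with these genes in view, so that count describes the list and supports nothing further. Among AiE0779m nuclei of the class, nucleus 34 stood apart with 1149 genes, Rgs9 at 2992 CPM, Tac1 at 1305 CPM and no reads of Drd1 or Pde10a. Sp9, a transcription factor of the indirect pathway, did not enter, with reads in 2 of 25 and 0 of 21 nuclei.

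The direct pathway differed less. Drd1 (chr13:54051183-54055705, minus strand) had reads in 10 of 25 AiE0387m nuclei, at 315 CPM (300 to 331), and in 17 of 21 AiE0779m nuclei, at 819 CPM (797 to 842), a log2 ratio of -1.38 that does not reach 4-fold. Its level by run was 129, 240, 486 and 694 CPM against 1026, 811 and 624 CPM, so the runs overlap through the single nucleus of run 4. Tac1 (chr6:7554879-7565834, plus strand) had reads in 10 of 25 against 20 of 21 nuclei and stood at 727 CPM (703 to 751) against 1303 CPM (1275 to 1331). Tac1 runs were at 250, 299, 373 and 5730 CPM against 1201, 2202 and 670 CPM. Without the run 4 nucleus, which held the highest Tac1 level of its vector, every AiE0387m run lies below every AiE0779m run.

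Of the 9 direct pathway genes, 6 entered, 0 were higher under AiE0387m and 1 was lower. Over all genes that entered 5.97% were higher and 4.26% lower, and counts from 6 genes cannot be told from those shares. The lower gene was Isl1, a transcription factor of direct pathway neurons, with 0 CPM in 0 of 25 nuclei (0 to 0.735) against 68.2 CPM in 7 of 21 nuclei (61.9 to 74.9). Isl1 entered only through AiE0779m, the vector in which it is high. It was at 112 CPM (4 of 7 nuclei), 30.5 CPM (1 of 7) and 55.8 CPM (2 of 7) in the 3 AiE0779m runs. Ebf1, another direct pathway transcription factor, stood at 129 against 93.4 CPM with reads in 8 of 25 and 15 of 21 nuclei. Pdyn, the dynorphin precursor, had reads in 3 of 25 and 4 of 21 nuclei, at 79.3 against 161 CPM, and did not enter. The muscarinic receptor gene Chrm4, also on the list, had reads in 0 of 25 and 1 of 21 nuclei.

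**Figure D3:**
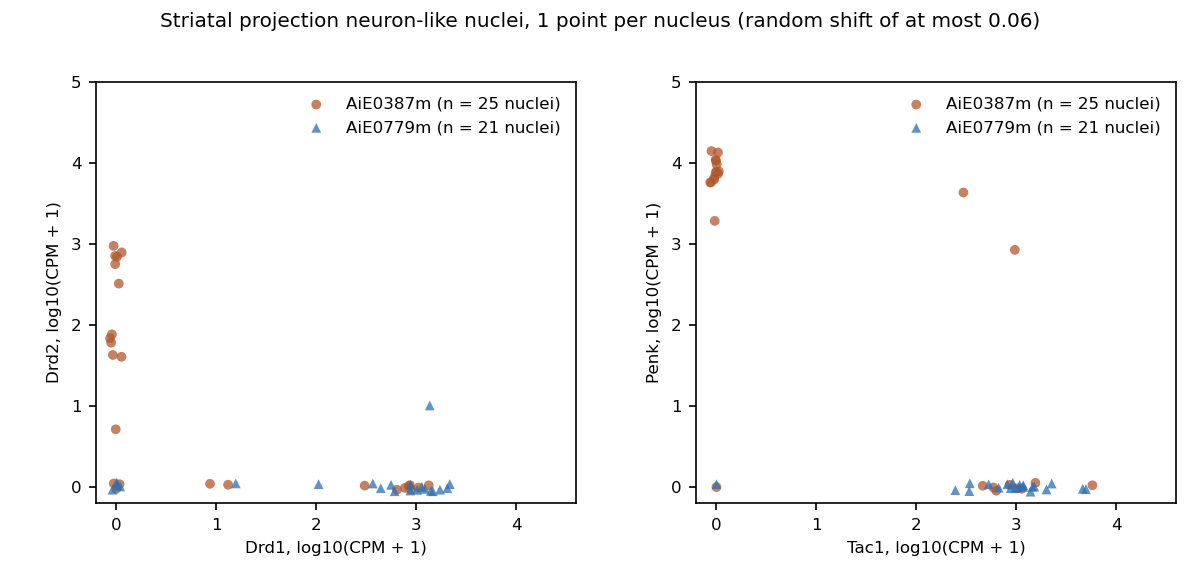
Drd2 against Drd1 (left) and Penk against Tac1 (right), log10 of CPM + 1 on both axes, for 25 AiE0387m (circles) and 21 AiE0779m (triangles) striatal projection neuron-like nuclei, shifted at random by at most 0.06. AiE0387m nuclei lie along both axes, while AiE0779m nuclei lie along the Drd1 and Tac1 axes, 1 of them with Drd2 reads and all 21 with Penk at 0.

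Each nucleus was then typed from Drd1 and Drd2 alone, which needed 10 CPM of either gene and at least 4 times the level of the other. AiE0387m held 9 Drd1-type, 11 Drd2-type and 5 untyped nuclei, a Drd1-type share of 45.0% of those typed (23.1 to 68.5%). AiE0779m held 17 Drd1-type, 0 Drd2-type and 4 untyped nuclei, a share of 100% (80.5 to 100%). By run the Drd1-type and Drd2-type counts were 1 and 5, 4 and 3, 3 and 3, and 1 and 0 under AiE0387m. Under AiE0779m they were 7 and 0, 6 and 0, and 4 and 0. The first AiE0387m run leaned towards the Drd2 type and its next 2 runs held both types.

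Penk and Tac1 were not used for the typing and sorted the same way. Both are among the markers that named the class, and the pair was proposed with pathway genes in view. Their levels thus describe the typed nuclei and give the typing no separate support. Penk had reads in 11 of 11 AiE0387m Drd2-type nuclei (4029 to 13233 CPM, median 7665) and in 0 of 9 Drd1-type nuclei. All 5 untyped AiE0387m nuclei had Penk, at 869 to 9725 CPM. Tac1 had reads in 8 of 9 AiE0387m Drd1-type nuclei, at 1763 CPM summed, in 1 of 11 Drd2-type nuclei, at 32.8 CPM, and in 1 of 5 untyped nuclei. Nucleus 27 of run 4 dominated the Drd1-type sum, which was 781 CPM without it. Under AiE0779m, Tac1 had reads in 17 of 17 Drd1-type nuclei, at 1430 CPM, and in 3 of 4 untyped nuclei, at 851 CPM. Untyped nucleus 19 of AiE0387m held Penk and Tac1 both at 869 CPM, and untyped nucleus 35 of AiE0779m held neither. Typing instead by Tac1, Pdyn, Isl1 and Ebf1 against Penk, Adora2a, Gpr6 and Sp9 gave 9 direct of 24 typed nuclei under AiE0387m (37.5%) and 19 of 19 under AiE0779m. That rule was chosen after seeing the data.

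Further genes followed the types under AiE0387m. Gpr6 was found in 11 of 11 Drd2-type nuclei (842 CPM) and 0 of 9 Drd1-type nuclei. Foxp2, a transcription factor, was found in 6 of 9 Drd1-type nuclei (420 CPM) and 1 of 11 Drd2-type nuclei (36 CPM). Ebf1 was found in 7 of 9 Drd1-type (326 CPM) and 0 of 11 Drd2-type nuclei. The kainate receptor gene Grik3 was found only in Drd2-type nuclei of the 2 types, 5 of 11 at 60.4 CPM, as was the transcription factor gene Ikzf2, 3 of 11 at 84.0 CPM.

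Under the other 18 vectors together, 56 striatal projection neuron-like nuclei were Drd1-type, 32 Drd2-type and 24 untyped, a Drd1-type share of 63.6% (52.7 to 73.6%), and 68 of 112 (60.7%) had Penk reads. Within series S40326 alone the other vectors held 49 Drd1-type and 25 Drd2-type nuclei (66.2%, 54.3 to 76.8%) and Penk in 56 of 95, beside 13 and 0 with Penk in 0 of 14 for AiE0779m. Within S40324 they held 7 and 7 (50.0%, 23 to 77%), beside 8 and 11 for AiE0387m (42.1%, 20.3 to 66.5%). That pool was uneven, with AiE0078h at 6 and 0, AiE0401h at 1 and 2 and AiE0410m at 0 and 5. In S40326 AiE0078h held 0 and 3, so the types of 1 vector could differ between library series. In S40325 AiE0779m held 4 and 0. AiE0410m was the reverse of AiE0779m, with 0 Drd1-type and 5 Drd2-type nuclei (0%, 0 to 52.2%) and Penk in 7 of 7. Those nuclei all came from S40324, and so few do not show that the vector holds a single type. Typed nuclei of a single type were thus seen beyond AiE0779m. Whether the nuclei of a run share an animal is not given in the labels.

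**Figure D4:**
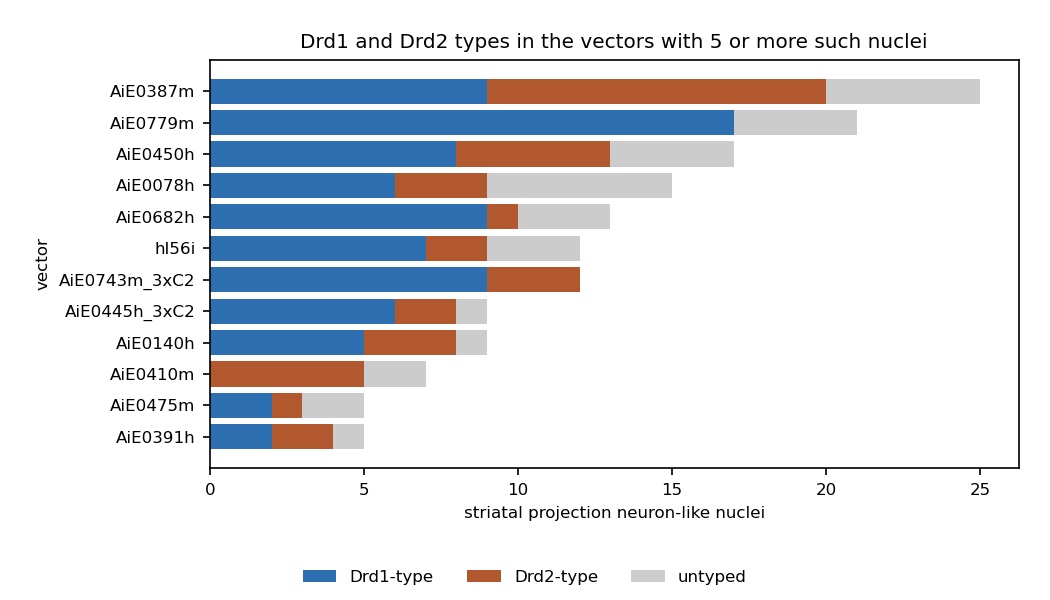
Number of striatal projection neuron-like nuclei (horizontal axis) of Drd1-type, Drd2-type and untyped in each vector with at least 5 such nuclei (vertical axis). AiE0387m holds 9 Drd1-type and 11 Drd2-type nuclei, AiE0779m holds 17 and 0, and AiE0410m holds 0 and 5.

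Most genes that all striatal projection neurons share stayed within 4-fold, as did most genes that entered. Of 24 genes of dopamine and cAMP signalling 23 entered, 0 were higher and 1 was lower under AiE0387m. Over all genes that entered 5.97% were higher and 4.26% lower, so these counts are near those shares. The median log2 ratio of the list was 0.01, the same as over all genes that entered. Pde10a, the striatal phosphodiesterase, was at 3126 CPM (3077 to 3175) against 2902 CPM (2860 to 2945), and by run at 3872, 3238, 2828 and 735 CPM against 3371, 3366 and 2068 CPM. Ppp1r1b, the inhibitor of protein phosphatase that dopamine switches on, was at 890 against 990 CPM. Rgs9 (chr11:109225355-109298129, minus strand) was at 1020 CPM (993 to 1049) against 1468 CPM (1439 to 1499), a log2 ratio of -0.53. Its runs do not overlap, at 987, 1040, 1083 and 841 CPM against 1564, 1384 and 1444 CPM. Adcy5, the adenylyl cyclase of these cells, was at 467 against 781 CPM, and its runs overlapped. The gene past 4-fold was Prkaca, a catalytic subunit of protein kinase A, at 11.4 against 51.2 CPM with reads in 5 of 25 and 7 of 21 nuclei.

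The next 3 lists are short, and their counts cannot be told from the shares over all genes that entered (5.97% higher, 4.26% lower). Among 19 striatal transcription factors 10 entered, and Isl1 was the only gene past 4-fold. Meis2 was at 634 against 544 CPM, Foxp1 at 583 against 674 CPM and Bcl11b at 130 against 135 CPM. Of 12 striosome and matrix genes, which separate the compartments of the striatum, 5 entered and 1 was lower, Tshz1, with reads in 1 of 25 nuclei (0.398 CPM) and 6 of 21 nuclei (26.2 CPM). Tshz1 runs were at 1.21, 0, 0 and 0 CPM against 10.5, 72.9 and 3.54 CPM, and the highest drew on 2 of 7 nuclei. Epha4, a receptor of axon guidance, was at 304 against 135 CPM, with runs at 497, 343, 141 and 0 CPM against 219, 139 and 48.7 CPM that overlap. Of 14 genes that separate ventral from dorsal striatum 6 entered and 1 was lower, Wfs1, at 37.1 against 171 CPM with reads in 3 of 25 and 6 of 21 nuclei. Wfs1 runs were at 0, 98.6, 0 and 121 CPM against 86.9, 94.1 and 315 CPM, so they overlap. Cnr1, the cannabinoid receptor gene, was at 397 against 363 CPM and Reln at 195 against 174 CPM.

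**Figure D5:**
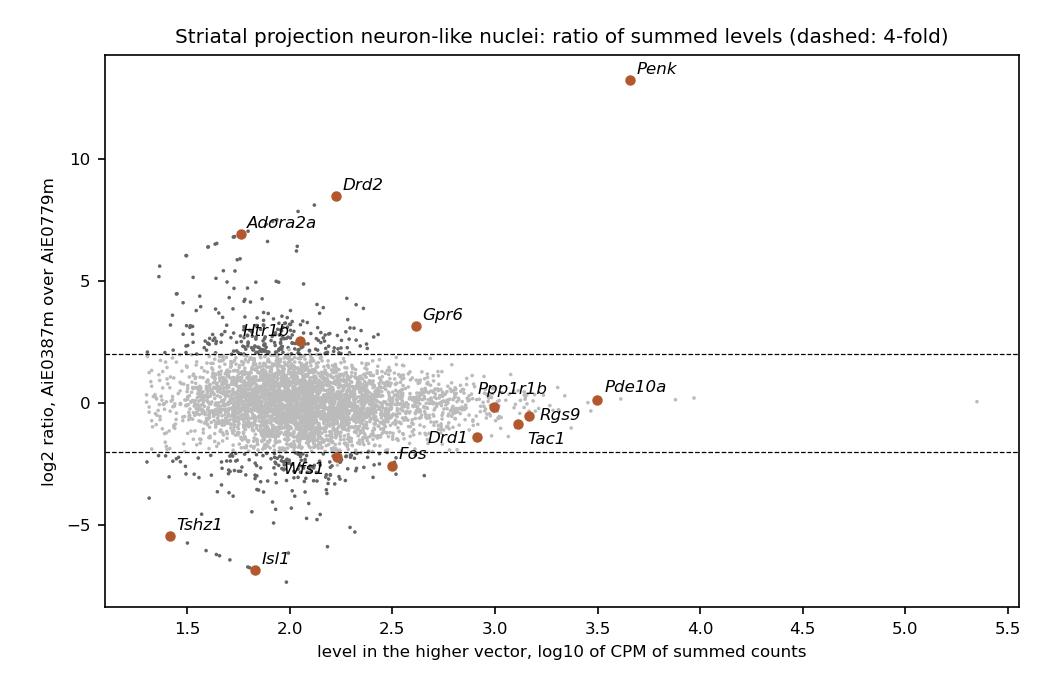
Log2 ratio of the summed levels, AiE0387m over AiE0779m (vertical axis), against the log10 CPM in the vector where the gene is higher (horizontal axis), for 4338 genes in striatal projection neuron-like nuclei; dashed lines mark 4-fold, and genes with fewer than 3 counts in a vector are set to 3 counts there. Penk, Drd2, Adora2a and Gpr6 lie far above the upper line, Isl1 and Tshz1 below the lower line, and Rgs9, Pde10a and Ppp1r1b between them.

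Few ion channel or GABA-A receptor genes passed 4-fold, and so did few of all genes that entered (5.97% higher, 4.26% lower). With so few genes per family, the counts are near those shares. Of 16 sodium and calcium channel genes that entered 0 passed 4-fold in either direction, as did 0 of 9 GABA-A receptor genes. Of 14 potassium channel genes 1 was lower, Kcnc1, a subunit of fast potassium channels best known from interneurons, at 8.77 against 46.6 CPM (3 of 25 and 8 of 21 nuclei). Of 6 serotonin and neuromodulator receptor genes 2 were higher, beside 5.97% of all genes that entered. They were the serotonin receptor Htr1b, at 113 against 19.2 CPM, and the muscarinic receptor Chrm3. Htr1b runs were at 158, 185, 28.8 and 0 CPM against 10.5, 53.3 and 0 CPM, so they overlap. Chrm3 had reads in 12 of 25 AiE0387m nuclei (53.2 CPM) and in 0 of 21 AiE0779m nuclei, and its runs were at 110, 9.93, 44.7 and 0 CPM against 0, 0 and 0 CPM.

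Of 11 immediate early genes, which neurons switch on within minutes of activity, 7 entered and 1 was lower under AiE0387m, beside 4.26% of all genes that entered. Their median log2 ratio was -1.28, beside 0.01 over all genes. The gene past 4-fold was Fos, at 53.6 CPM in 2 of 25 nuclei against 316 CPM in 7 of 21. Its runs were at 0, 49.7, 127 and 0 CPM under AiE0387m and at 358, 654 and 0 CPM under AiE0779m, so the level was not shared by the AiE0779m runs. Junb was at 163 against 402 CPM, and its AiE0779m runs were likewise at 499, 749 and 25.2 CPM. Arc was nearly equal in sum, at 165 against 173 CPM, with runs at 188, 143, 201 and 0 CPM against 130, 437 and 0.443 CPM. Run 5 of AiE0779m, the lowest of its runs for all 3 genes, is the one in series S40325. Egr1 was also lowest in run 5, at 243 CPM against 494 and 462 CPM, and Egr4 at 16.4 against 79.6 and 359 CPM. Nr4a1 was not, at 126 CPM in run 5 against 118 and 287 CPM in runs 3 and 4.

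By size of ratio, among genes with reads in at least 50% of the nuclei of the vector where they were higher, the 8 leading genes under AiE0387m were Penk, Med1, Tent2, Hmbox1, Ndufa11, Gpr6, Ltn1 and Nae1. Med1, a subunit of the Mediator complex of transcription, was at 64.5 CPM (57.7 to 72, 13 of 25 nuclei) against 3.65 CPM (2.32 to 5.48, 7 of 21). Its runs were at 115, 94.3, 0.639 and 0 CPM against 6.83, 0 and 3.54 CPM, so run 3 lay with the other vector. Tent2, a poly(A) polymerase, was at 140 CPM (130 to 151) against 11 CPM (8.53 to 13.9), with runs at 191, 97.2, 159 and 5.14 CPM against 10.9, 4.9 and 15.9 CPM. The 8 leading genes in the other direction were Mcu, Nup93, Exd2, Eif4enif1, Prickle1, Leng8, Prkch and Tmem136. Mcu, the calcium channel of mitochondria, was at 4.38 CPM (2.75 to 6.64, 5 of 25 nuclei) against 36.2 CPM (31.7 to 41.3, 14 of 21). Prickle1, a planar cell polarity gene, was at 18.9 against 135 CPM with runs at 24.8, 28.4, 8.95 and 0 CPM against 32.3, 87.6 and 274 CPM that do not overlap.

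The 9 AiE0387m and 17 AiE0779m Drd1-type nuclei were also set side by side. Of the 9, 8 came from series S40324, while the 17 came from S40325 (4) and S40326 (13), so vector and library series cannot be told apart. These nuclei were picked by their Drd1 level, so that level is a description. Here 4643 genes entered, 461 were higher (9.93%) and 500 lower (10.8%), larger shares than in the whole class and from fewer nuclei. Without AiE0387m nucleus 27, the 1 Drd1-type nucleus of run 4, 5473 genes entered, 845 were higher and 575 lower. Of 7 direct pathway genes that entered, 0 were higher and 1 was lower, again Isl1, in 0 of 9 nuclei against 7 of 17 (87.3 CPM). Tac1 was at 1763 against 1430 CPM, but at 781 CPM (738 to 826) without nucleus 27, so its direction rested on that nucleus. Drd1 was at 807 against 1049 CPM and Pdyn at 203 against 206 CPM. Ebf1 was at 326 CPM (7 of 9 nuclei) against 110 CPM (13 of 17), short of 4-fold. Rgs9 was at 848 against 1363 CPM, with nuclei from 271 to 1409 CPM and from 76.1 to 3077 CPM that overlap.

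Tshz1 was at 0 in 9 Drd1-type nuclei of AiE0387m and at 33.6 CPM in 6 of 17 of AiE0779m. Fos was in 0 of 9 against 7 of 17 nuclei (405 CPM), and Egr4, another immediate early gene, in 1 of 9 (31.6 CPM) against 7 of 17 (170 CPM). Among Drd1-type nuclei 9.93% of all genes that entered were higher and 10.8% lower. Of 9 striatal projection neuron markers that entered, 0 passed 4-fold in either direction. Of 22 dopamine and cAMP genes 1 was lower, Prkar2b, a regulatory subunit of protein kinase A, at 3.06 against 81.0 CPM. Drd2-type nuclei could not be compared, since AiE0779m had 0.

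The nuclei outside the class were of different kinds, and their comparison is mostly one of interneuron-like with oligodendrocyte-like nuclei. Among 15 AiE0387m and 10 AiE0779m nuclei, 6008 genes entered, 2134 were higher under AiE0387m (35.5%) and 461 were lower (7.67%), with a median log2 ratio of 1.06 over all genes. Of 8 oligodendrocyte markers that entered, 8 were lower under AiE0387m. Potassium channel genes were higher in 12 of 15 and GABA-A receptor genes in 7 of 12. Since these nuclei differ in class and in genes detected, with a median of 3042 genes against 1144 at an equal 150000 counts, no gene-by-gene reading within a cell type follows from these numbers.

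The 14 interneuron-like AiE0387m nuclei spread over clusters of several kinds. A cluster led by Mybpc1, Pde5a, Btbd11 and Pvalb held 6, a cluster led by Pde3a, Pthlh, Ramp3 and Nkx2-1 held 5, a cluster led by Chodl, Galr1 and Nos1 held 2, and a cluster led by Lama4 and Crhbp held 1. Gad1, which makes the transmitter GABA, had reads in 13 of 14 (median 880 CPM, highest 2048), Sox6 in 12 of 14, Kcnc1 in 12 of 14 and the neuregulin receptor Erbb4 in 8 of 14. Pthlh had reads in 5 of 14 and Nkx2-1 in 4 of 14, and neither had any in the 25 striatal projection neuron-like nuclei of the vector. The nuclei numbered 34 and 40 held Sst at 36067 and 19732 CPM together with Nos1, the nitric oxide synthase gene, at 1597 and 1491 CPM. AiE0779m had 1 such nucleus, number 4, with Sst at 24332 and Nos1 at 2332 CPM.

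Striatal genes were low in these interneuron-like nuclei but not absent. Under AiE0387m, Rgs9 had reads in 3 of 14 (19.7 CPM against 1020 CPM in the striatal projection neuron-like nuclei), Pde10a in 11 of 14 (180 against 3126 CPM) and Drd1 in 4 of 14 (159 against 315 CPM). Penk was in 4 of 14, at 127 CPM. Nucleus 30, the one with most genes at 5950, had Slc17a7, the glutamate transporter gene of cortical excitatory neurons, at 570 CPM beside Gad1 at 418 CPM.

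The 7 oligodendrocyte-like AiE0779m nuclei had Mbp, the myelin basic protein gene, at 3853 to 15771 CPM (median 7073). Mog and Mag, surface proteins of myelin, had reads in 6 of 7 each, and Gad1, Drd1 and Slc17a7 in 0 of 7. Leading genes lower under AiE0387m were Ptgds, Trf, Apod, Hapln2, Tnfaip6, Gsn and Gatm, each with 0 reads in the 15 AiE0387m nuclei, beside Wscd1. Trf, the iron carrier transferrin, was at 8525 CPM in 7 of 10 AiE0779m nuclei. Among the AiE0779m oligodendrocyte-like nuclei, nucleus 8 carried Penk at 4370 and Rgs9 at 1194 CPM beside Mog at 1448 CPM, and nucleus 12 carried Penk at 1625 CPM. Penk in AiE0779m was thus seen in such nuclei and in interneuron-like nucleus 4 (330 CPM), and in none of the striatal projection neuron-like ones.

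Over all nuclei past the minimum, 5000 genes entered, 359 were higher under AiE0387m (7.18%) and 105 lower (2.10%), and those sums mix the classes above. Penk was at 2338 against 230 CPM, with reads in 20 of 40 and 3 of 31 nuclei. Sgk1, a kinase gene, led the other direction at 104 against 2545 CPM, followed by Mbp at 254 against 2323 CPM and Tubb4a, a tubulin gene, at 132 against 1166 CPM. All 5 oligodendrocyte markers that entered were lower under AiE0387m.

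Depth ran from 138017 to 593086 counts per AiE0387m nucleus (median 217691) and from 126770 to 446313 per AiE0779m nucleus. Striatal projection neuron-like nuclei had median counts of 187640 and 291261, so AiE0387m nuclei were the shallower, and medians of 2685 and 2518 genes when thinned to 150000 counts (22 and 20 nuclei deep enough), against 2665 and 2590 unthinned. Markers of other cells in this class had low medians but were high in some nuclei. Oligodendrocyte genes summed to a median of 123 CPM (0 to 7301) under AiE0387m and 482 CPM (0 to 1615) under AiE0779m. Astrocyte genes summed to 151 CPM (0 to 1192) and 303 CPM (0 to 1158). Interneuron genes summed to 22.2 CPM (0 to 1052) and 0 CPM (0 to 2209). Genes of microglia and of oligodendrocyte precursors were at 0 under both. Xist, the RNA of the silenced X chromosome, had 0 reads in all 80 nuclei, and a Y-linked gene had reads in 40 of 40 and 34 of 40.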

How the data were processed

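The labelled nuclei were sequenced with SMART-Seq v4, 1 nucleus per library. The authors deposited a table of read counts, checked here to hold whole numbers, with 32285 genes and 2501 columns, of which 1701 match no label and were not used. STAR 2.7.2a and mm10 are named per the submitters' processing notes, while annotation and counting rule were not given in the sources used here. This method keeps no strand and no molecule barcodes, so antisense overlaps and amplification copies are not separated and values grow with transcript length. Gene positions come from GENCODE M21.

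The members and gene lists were chosen with earlier results of these data known. Nuclei with at least 1000 genes (698 over all vectors) were clustered with scanpy 1.11.5 on 2000 variable genes, 30 components, 15 neighbours and a Leiden resolution of 1, leaving out 290 list genes. A cluster took the class whose markers had the highest relative mean, among classes with at least 3 detected markers, unless another class had more markers among the top 10 genes. The naming rule took this form only once initial clusters had been seen. A class given to each nucleus by its own marker score is among the alternatives. No doublet caller was run. Of the 80 nuclei, 0 had identical values and 0 library index pairs were shared between the vectors.

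Levels are counts summed over nuclei as CPM, with exact Poisson intervals, and shares have exact Clopper-Pearson intervals. These cover counting error only. With 1 sample per vector there is no test and no replicate check. Genes were called past 4-fold, with a floor of 3 counts over the group. The text names list genes, and the 8 genes of largest ratio in each direction with reads in 50% of the nuclei of the higher vector. The ratio rule was tested on simulated data. Alternatives were a 2-fold rule, other gene minimums, cluster resolutions and typing ratios, equal depth, TMM scaling (edgeR 4.0.16), single library series and leaving out each run. Reporter reads were not analysed here. Some results are not reported here.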

Additional observations from a re-analysis of the deposited data

Results flagged for a closer look

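The 9 AiE0779m nuclei under 1000 genes entered no comparison, and they held a strong signal of their own. Their summed Mog level was 2030 CPM (exact Poisson interval 1977 to 2083, counting error only), far above the 1.08 CPM that 3 counts over these nuclei would give. Mog had reads in 7 of the 9. With a minimum of 500 genes, 7 of the 9 were oligodendrocyte-like. All 40 AiE0387m nuclei passed the minimum, so no AiE0387m nuclei of this kind stand beside them.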

How the results depend on the processing

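No paired analysis was possible because the numbers in the titles count nuclei within a vector and pair nothing across vectors. The Drd1-type share kept to 38.5 to 57.1% under AiE0387m and 100% under AiE0779m over all alternatives that left out runs, and to 37.5 to 45.5% and 100% over the others. The share of striatal projection neuron-like nuclei depended on which nuclei were taken. Under AiE0387m it was 6.25% in library series S40326 alone and 53.1 to 78.1% when runs were left out, with 78.1% without run 5. Under AiE0779m it was 87.0% with a minimum of 2000 genes, which drops oligodendrocyte-like nuclei, and 58.3 to 80.8% when runs were left out. With a 2-fold rule, genes higher and lower under AiE0387m numbered 1118 and 473 over all nuclei and 776 and 686 in the striatal projection neuron-like ones, and 849 were lower in the others. In S40326 alone the counts were 1049 and 379 over all nuclei, and 955 and 1876 in the class, where AiE0387m has 1 nucleus. Drd1-type nuclei alone gave 461 and 500, and 845 and 575 without the single AiE0387m nucleus of run 4. A minimum of 2000 genes gave 1226 lower genes in the other nuclei. Leaving out each run gave 291 to 524 higher and 113 to 171 lower genes over all nuclei, 162 without AiE0779m run 3 and 171 without run 5. In the class it gave 284 to 432 and 201 to 304, with 432 higher genes without AiE0779m run 3, and 282 and 304 lower genes without AiE0387m runs 2 and 3. In the other nuclei it gave 2138 to 2700 and 407 to 626. TMM scaling moved the median log2 ratio of all genes from 0.20 to 0.07 over all nuclei, from 1.06 to 0.72 in the other nuclei, and left 0.01 in the class. The cause of these moves was not tested. The alternative with Drd2-type nuclei alone was not run, since AiE0779m has 0. Typing by other pathway genes and leaving out nuclei under 2000 genes without Pde10a reads (251 and 243 genes), and leaving that nucleus out of the Drd1-type, were chosen after seeing the data. Over the alternatives, 114 results kept within their limits and 23 moved. The number of nuclei limits what an absence means. For 0 of 21 AiE0779m nuclei of the class the set floor is 3 of 21 (14.3%), which is not an exact limit. At this depth a nucleus without reads may still express the gene.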

Other observations

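Some gene groups that the comparisons above do not cover were also compared in striatal projection neuron-like nuclei. Over all genes that entered there, 5.97% were higher and 4.26% lower. With so few genes entered per group, 0 past 4-fold is near those shares. Of 9 nuclear noncoding RNAs 7 entered and 0 passed 4-fold in either direction. Malat1, an abundant RNA kept in the nucleus, was at 222970 CPM under AiE0387m and 213653 CPM under AiE0779m, with reads in 25 of 25 and 21 of 21 nuclei. Meg3, an imprinted noncoding RNA, was at 7580 against 6876 CPM, and Kcnq1ot1 at 1298 against 911 CPM. Of 10 heat shock genes 5 entered and 0 passed 4-fold, with Hspa8 at 501 against 678 CPM. Their median log2 ratio was 0.71, beside 0.01 over all genes. Of 10 interferon and antigen presentation genes 0 entered, so that group could not be compared. Of 8 mitochondrially encoded genes 1 entered, mt-Cytb, at 74.5 against 101 CPM, and it did not pass.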
